A study of Mus musculus with 71 samples.

Results

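The genes described here were 7 markers of oligodendrocyte precursor cells, namely Pdgfra, Cspg4, Gpr17, Neu4, C1ql1, Megf11 and Lhfpl3, followed through 3 regions of the mouse reward circuit after cocaine or saline self-administration. They were picked by gene symbol from the 37681 genes listed across the tables, as genes known to mark these cells, and all 7 passed the filter on low values in every table. Each library came from micro-punched tissue of the nucleus accumbens (NAc), ventral tegmental area (VTA) or prefrontal cortex (PFC) of wild type mice, given as C57BL/6 in the labels and as C57BL/6J in the study's methods. The study asked how gene expression differed between cocaine and saline self-administration after early and late abstinence. All mice, saline controls included, had first learned to work for food and then received a jugular catheter. They then self-administered saline or 0.7 mg/kg cocaine per infusion in 21 daily sessions. Per the study's methods, mice of both sexes aged 8 weeks were used, and the labels do not give the sex behind a library.

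The 71 libraries formed 12 groups by treatment (cocaine or saline), region and time of abstinence (1 day or 28 days). Each group held 6 libraries except saline VTA at 28 days, which held 5. Library depth ranged from 20971967 to 49700932 reads over genes, with a median of 28682156. The labels do not say whether a library was 1 mouse or several, so the spread between libraries may be partly technical, and every test here measures that spread. Levels are given as RPKM, that is reads divided by gene length and by library depth, which allows genes of different length to be compared. The treatments at 28 days were compared on read counts with edgeR's quasi-likelihood test, as were those in NAc at 1 day, and the VTA and PFC tables at 1 day on log2(RPKM + 0.1) with limma.

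Oligodendrocyte precursor cells are glia that persist in the adult brain, divide slowly, and give rise to the oligodendrocytes that wrap axons in myelin. Their survival and division depend on platelet-derived growth factor acting on its receptor PDGFRα, and they receive synapses from neurons. As they mature they lose the receptor and the NG2 proteoglycan, pass through a Gpr17-expressing stage and begin to make myelin proteins. None of the 7 genes is exclusive to the lineage: Pdgfra is also expressed by perivascular fibroblasts, Cspg4 by the pericytes of small vessels and C1ql1 by some neurons. The libraries are bulk tissue, so fewer cells of a type and less RNA per cell cannot be told apart.

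The genes were placed on the mm9 build, which was the build of the tables, with positions from the GENCODE annotation of that build. Pdgfra lay at chr5:75548316-75594229 on the plus strand with 24 exon blocks, Cspg4 at chr9:56712911-56747677 on the plus strand with 10, and Megf11 at chr9:64233433-64557012 on the plus strand with 28. Neu4 lay at chr1:95917070-95924903 on the plus strand with 5 exon blocks. C1ql1 lay at chr11:102800578-102808002 on the minus strand with 2 exon blocks, and overlapped the lincRNA Gm17536 on the other strand. Lhfpl3 lay at chr5:22252011-22618785 on the plus strand with 4 exon blocks, and overlapped 1700030G06Rik, Gm11160 and Gm6564. The sources do not state whether counting used strand, so reads from Gpr17, C1ql1 and Lhfpl3 and from their overlapping partners could not be told apart. The deposited RPKM implied a length of 699 bases for Lhfpl3 against 8060 for Cspg4, and Lhfpl3 accordingly had the fewest reads at its highest, from 62 to 665 per library.

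RefSeq promoter windows on GRCm38.p6, from 250 bases before to 50 after the start of the gene, were on hand for 4 of the 7 genes: Pdgfra, Cspg4, Neu4 and Lhfpl3. Gpr17, C1ql1 and Megf11 had no entry. The windows were searched on both strands for CAGCTG, an E-box of the kind that the basic helix-loop-helix factors of the lineage can bind, and for ACAAAG, a core of SOX factor sites. CAGCTG occurred 2 times in the Lhfpl3 window and in none of the other 3, beside 16.3% of all 32851 windows with at least 1 match. ACAAAG occurred in none of the 4, beside 18.7% of all windows. The windows of Lhfpl3 (chr5:22745804-22746103, plus strand) and Pdgfra (chr5:75152001-75152300, plus strand) are shown because these genes had, respectively, one of the steepest and one of the flattest regional profiles of the set, and capitals mark CAGCTG.
Lhfpl3: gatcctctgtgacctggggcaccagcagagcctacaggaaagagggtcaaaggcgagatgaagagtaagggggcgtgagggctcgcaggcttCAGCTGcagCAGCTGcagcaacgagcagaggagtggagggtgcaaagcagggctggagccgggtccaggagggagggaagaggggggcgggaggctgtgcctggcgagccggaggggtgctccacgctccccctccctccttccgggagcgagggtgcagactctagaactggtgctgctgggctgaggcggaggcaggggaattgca
Pdgfra: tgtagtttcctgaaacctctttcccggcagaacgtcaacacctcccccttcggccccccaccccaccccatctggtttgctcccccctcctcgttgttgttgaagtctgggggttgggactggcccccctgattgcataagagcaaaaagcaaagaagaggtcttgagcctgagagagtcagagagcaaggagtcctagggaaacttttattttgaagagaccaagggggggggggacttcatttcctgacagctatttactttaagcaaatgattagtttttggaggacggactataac
The GC content of the windows was 66.0% for Lhfpl3, 60.0% for Cspg4, 55.3% for Neu4 and 51.0% for Pdgfra. A match describes the letters and does not show that a factor binds there.

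Tissue markers followed the region labels, with several libraries apart. The 6 markers of midbrain dopamine neurons summed to between 424.7 and 2029 RPKM in VTA libraries and reached at most 23.5 elsewhere. In saline PFC at 28 days, library 4 had a summed striatal marker level of 734.6 RPKM, where the group's median was 77.6 and all cocaine libraries lay between 56.3 and 78.7, and its cortical marker sum of 468.3 was the lowest of its table. In saline VTA at 28 days, library 4 had the highest sums of its group for cortical neurons (84.2 RPKM) and perivascular fibroblasts (223.5) and the lowest for dopamine neurons (448.7). In cocaine VTA at 1 day, libraries 3 and 6 had cortical sums of 68.6 and 77.4 RPKM, above the 31.5 that was the highest in the saline group. Cortical sums were uneven in NAc as well, from 3.11 to 211.6 RPKM in saline and from 3.75 to 284.8 in cocaine libraries at 1 day, and from 20.6 to 182.0 and from 4.30 to 210.2 at 28 days. For the precursor genes, several results that rest on the PFC and VTA libraries named here are given with and without them. Results for the other gene lists are given only with these libraries.

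By level, Gpr17, Pdgfra and Lhfpl3 were the more abundant of the set in NAc and PFC, whereas C1ql1 led in VTA at 28 days. In saline NAc at 28 days the order of mean levels was Gpr17 at 13.1 ± 2.08 RPKM (SD, n = 6), Lhfpl3 at 10.9 ± 1.90, Pdgfra at 10.0 ± 0.562, C1ql1 at 4.79 ± 1.85, Cspg4 at 3.67 ± 0.674, Megf11 at 2.72 ± 0.137 and Neu4 at 2.50 ± 0.214. In saline VTA at 28 days it was C1ql1 at 26.5 ± 9.49 RPKM (SD, n = 5), Lhfpl3 at 17.9 ± 6.08, Gpr17 at 14.3 ± 2.93, Pdgfra at 13.2 ± 2.86, Cspg4 at 4.93 ± 1.42, Megf11 at 4.83 ± 1.43 and Neu4 at 4.29 ± 0.773. In both regions several neighbours in these orders lay within an SD of each other, such as Cspg4 and Megf11 in VTA.

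**Figure D1:**
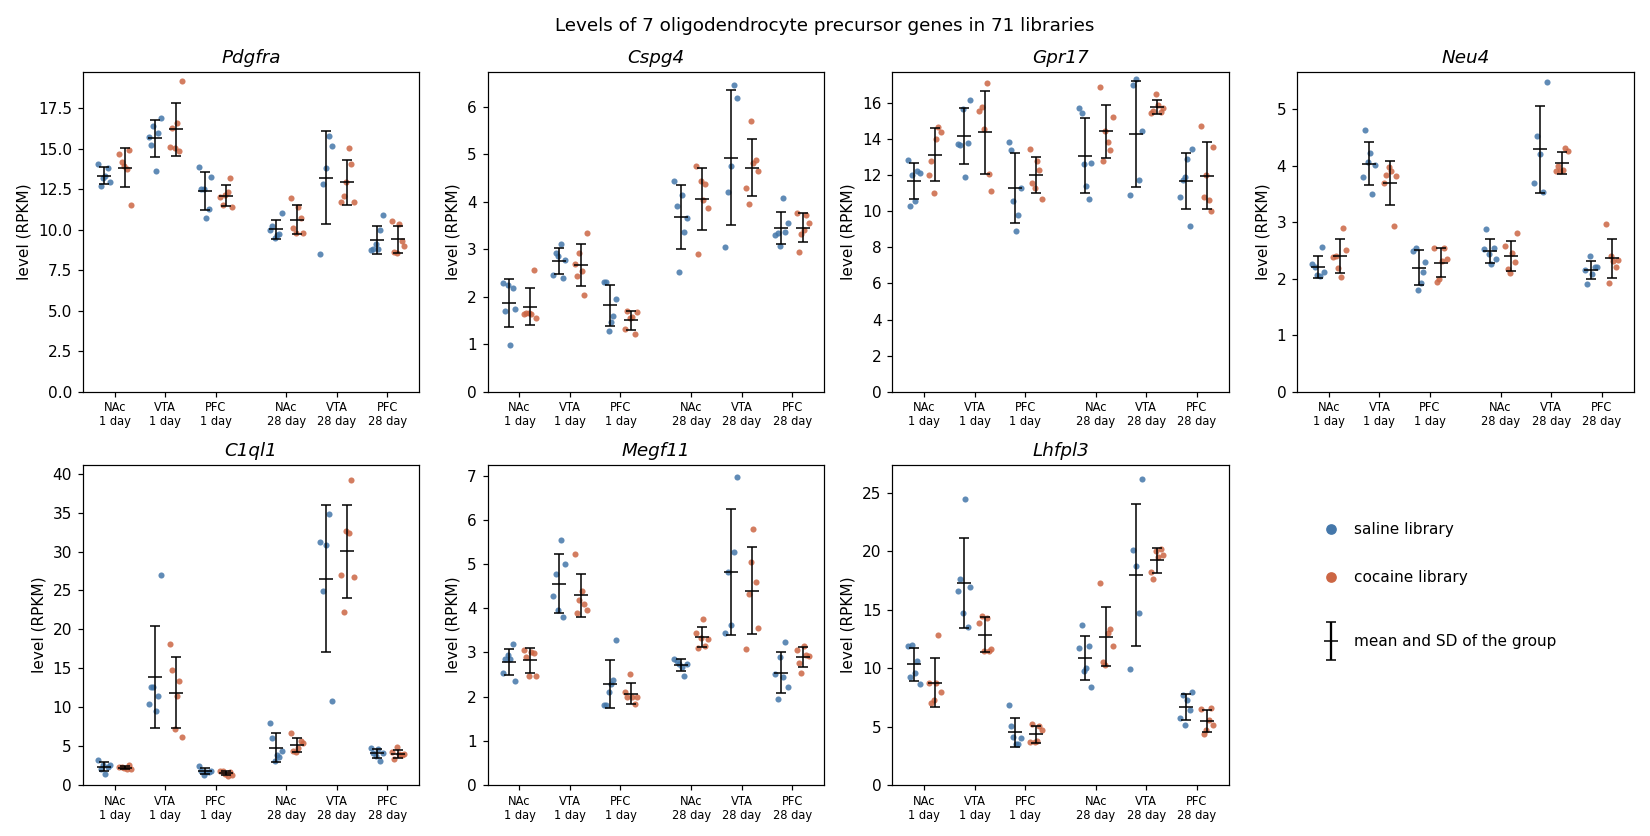
Level of each of the 7 genes in every library (y axis, RPKM, from 0) by region and time of abstinence (x axis). Points are libraries, blue for saline and red for cocaine, and bars are the mean and SD of the group. C1ql1 in VTA stands above the other regions at both times, and blue and red points overlap in all pairs of groups except Megf11 in NAc at 28 days.

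Among the surface receptors, Pdgfra, the receptor that binds the precursor mitogen PDGF-A, had the narrowest spread between libraries, with a median coefficient of variation of 8.89% over the 12 groups. Its level in saline NAc was 12.7, 13.3 and 14.1 RPKM (lowest, median, highest) at 1 day and 9.47, 9.88 and 11.0 at 28 days. In saline VTA it was 13.7, 15.9 and 16.9 RPKM at 1 day, and the 5 libraries at 28 days held 8.53, 12.8, 13.8, 15.8 and 15.2. In saline PFC it was 10.7, 12.5 and 13.9 RPKM at 1 day and 8.73, 8.97 and 10.9 at 28 days. The saline groups of the regions overlapped at 28 days, and a single VTA library held the lowest level of all 71. Over the 12 groups the highest mean was 1.73-fold the lowest, and 2 of the 11 steps between neighbours in the order of group means exceeded the larger SD of the pair.

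Cspg4, which encodes the NG2 proteoglycan, was present at lower levels. It was at 0.978, 1.97 and 2.29 RPKM in saline NAc at 1 day and 2.52, 3.78 and 4.44 at 28 days. In saline PFC it was 1.28, 1.78 and 2.31 RPKM at 1 day and 3.08, 3.36 and 4.07 at 28 days. In saline VTA it was 2.39, 2.81 and 3.11 RPKM at 1 day, and the 5 libraries at 28 days held 3.05, 4.20, 4.75, 6.46 and 6.19. The 28-day values were higher than the 1-day values in NAc and PFC, while in VTA the lowest 28-day value lay just inside the 1-day range. Time and table of deposit cannot be told apart, and the time points were not tested against each other. The same 5 VTA libraries, taken in order, had Pdgfra and Cspg4 both highest in library 4, the one with the highest fibroblast and mural sums (223.5 and 366 RPKM), and both lowest in library 1.

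Gpr17, an orphan receptor of precursors that are committing to differentiate, varied least across regions and times. It lay on mouse chromosome 18 at positions 32102651 to 32109290 of mm9, on the minus strand with 2 exon blocks, and overlapped Lims2. In saline libraries at 28 days it was 10.7, 12.6 and 15.7 RPKM in NAc and 9.15, 11.8 and 13.4 in PFC. The 5 saline VTA libraries at 28 days held 10.9, 16.98, 17.3, 11.7 and 14.4 RPKM. All 3 regions overlapped, and none of the 11 steps between neighbouring group means exceeded the larger SD. Its highest group mean was 1.40-fold its lowest.

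Neu4, a sialidase that trims sialic acid from glycoproteins and glycolipids, and Megf11, a transmembrane protein with EGF-like repeats, were the least abundant of the set in saline libraries at 28 days. Neu4 was at 2.26, 2.49 and 2.88 RPKM in saline NAc at 28 days and 1.91, 2.18 and 2.4 in PFC. The 5 saline VTA libraries at 28 days held 3.70, 4.54, 4.21, 3.55 and 5.48 RPKM, each above every NAc and PFC library. Megf11 was at 2.47, 2.75 and 2.86 RPKM in saline NAc at 28 days and 1.94, 2.49 and 3.24 in PFC. The 5 VTA libraries held 3.45, 4.81, 3.63, 5.28 and 6.98 RPKM for Megf11, again above every NAc and PFC library of that group.

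C1ql1, which encodes a secreted C1q-like protein that binds the adhesion receptor ADGRB3 at synapses, had the widest range of the set. In saline NAc at 28 days it was 3.08, 4.07 and 7.95 RPKM and in saline PFC 3.14, 4.06 and 4.73. The 5 saline VTA libraries at 28 days held 31.3, 24.9, 30.8, 34.9 and 10.8 RPKM. Every VTA library was above every NAc and PFC library, including library 5, which was far below the other 4. Over the 12 groups its highest mean was 19.5-fold its lowest, the median coefficient of variation was 20.8% with a maximum of 47.0%, and reads per library ran from 45 to 2224.

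Lhfpl3, a member of a family of small proteins with 4 membrane passes, showed a graded profile. It was at 5.17, 6.82 and 7.94 RPKM in saline PFC at 28 days and 8.34, 10.9 and 13.7 in saline NAc. The 5 saline VTA libraries held 9.94, 20.1, 18.8, 14.7 and 26.2 RPKM. PFC was below the other 2 regions with no overlap, whereas NAc and VTA overlapped through VTA library 1. The highest group mean was 4.42-fold the lowest.

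The regions were then compared in the saline libraries at 28 days, in a single fit of the 17 libraries on read counts. The genes were picked by symbol and not by their difference between regions, although earlier results of these data were known at that point. Region and table of deposit cannot be told apart. VTA had more of the precursor transcripts than NAc for 5 of the 7 genes (edgeR's quasi-likelihood test, adjusted p under 0.05), beside 62.5% of all 17181 genes called in either direction and 32.6% called higher in VTA. C1ql1 was 5.17-fold higher in VTA (log2 fold change NAc minus VTA, -2.37, SE 0.253, edgeR adjusted p = 2.72e-07). Megf11 differed by -0.72 (SE 0.159, edgeR adjusted p = 0.000702), Neu4 by -0.68 (SE 0.107, edgeR adjusted p = 2.64e-05) and Lhfpl3 by -0.62 (SE 0.196, edgeR adjusted p = 0.0105), on the same scale.

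Pdgfra differed by -0.29 between NAc and VTA (SE 0.117, edgeR adjusted p = 0.0364), and this call was lost in 12 of the 17 fits that left out 1 library, with values from -0.42 to -0.23. Without VTA library 4 and PFC library 4 it was -0.25 (edgeR adjusted p = 0.0925). Cspg4 (-0.32, SE 0.161, edgeR adjusted p = 0.0926) and Gpr17 (-0.03, SE 0.132, edgeR adjusted p = 0.877) did not pass. All 6 markers of perivascular fibroblasts were higher in VTA, and none of them was at 0. Their summed levels ran from 14.3 to 223.5 RPKM in saline VTA and from 7.75 to 8.48 in saline NAc. Of the 7 mural markers 3 were higher in VTA, with sums from 97.1 to 366 RPKM against 74.99 to 100.1 in NAc. Their part in the Pdgfra and Cspg4 differences was not tested.

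VTA also exceeded PFC for 5 of the 7 genes, beside 57.8% of all genes called and 29.8% called higher in VTA. C1ql1 was 5.87-fold higher in VTA (log2 fold change VTA minus PFC 2.55, SE 0.255, edgeR adjusted p = 1.31e-07) and Lhfpl3 2.43-fold higher (1.28, SE 0.198, edgeR adjusted p = 2.51e-05). Neu4 was higher by 0.85, Megf11 by 0.78 and Pdgfra by 0.35 (edgeR adjusted p = 0.0163 for Pdgfra). Cspg4 (0.37, edgeR adjusted p = 0.0595) and Gpr17 (0.15, edgeR adjusted p = 0.349) did not pass. Without the 2 libraries that stood apart in region markers Pdgfra was at 0.28 (edgeR adjusted p = 0.0740), and the calls then stood at 4 of 7 both here and between NAc and VTA.

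NAc and PFC differed for 1 of the 7 genes, Lhfpl3, which was higher in NAc by 0.66 (SE 0.191, edgeR adjusted p = 0.0102), beside 40.7% of all genes called and 20% called higher in NAc. Without the libraries that stood apart it was 0.68 (edgeR adjusted p = 0.0130). Scaling by total reads, in place of effective library size, moved the log2 fold changes of all genes by a median of -0.10 (NAc minus VTA). For VTA minus PFC the same change of scaling moved them by 0.14.

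**Figure D2:**
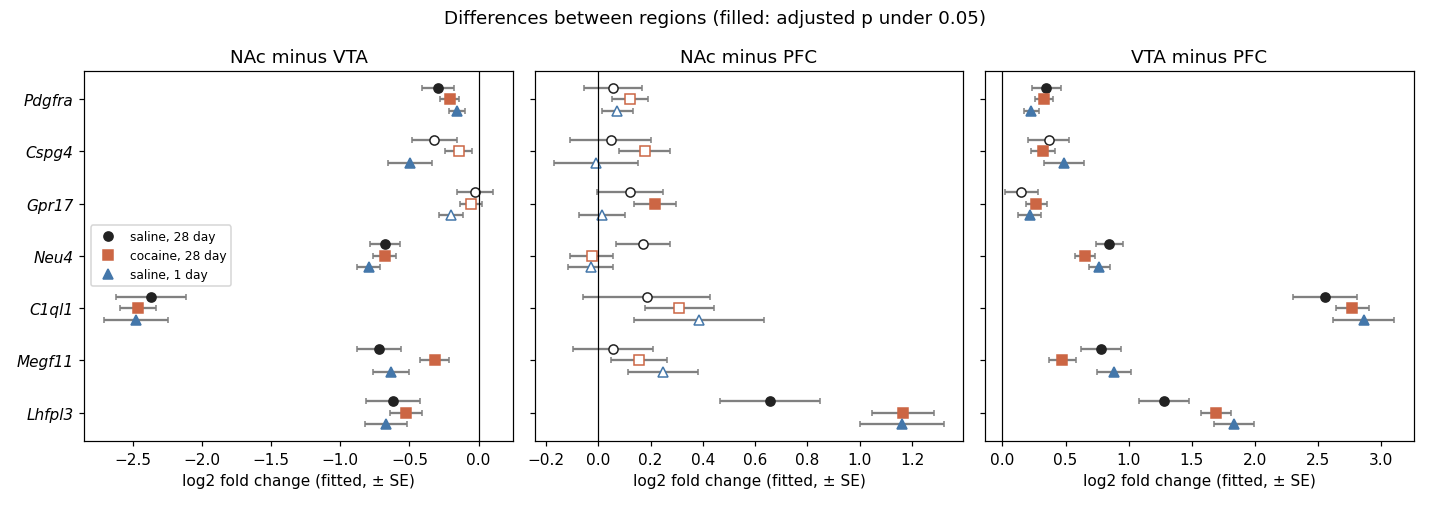
Fitted log2 fold change between regions (x axis, ± SE) for each gene (y axis) in the 28-day saline libraries, the 28-day cocaine libraries and the 1-day saline libraries. Filled symbols passed an adjusted p of 0.05. C1ql1 lies at -2.37 or beyond in all 3 fits of NAc minus VTA and Lhfpl3 is to the right of 0 in all 6 fits of VTA or NAc minus PFC.

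The regional profile was seen again in libraries that were not part of that fit. In the cocaine libraries at 28 days C1ql1 differed by -2.46 (NAc minus VTA) and 2.77 (VTA minus PFC), and Lhfpl3 by 1.17 (NAc minus PFC) and 1.69 (VTA minus PFC). In the saline libraries at 1 day the same differences were -2.48 and 2.86 for C1ql1 and 1.16 and 1.83 for Lhfpl3. Cspg4 and Gpr17, which had not passed between VTA and PFC in saline libraries at 28 days, passed in both of these sets, with Cspg4 at 0.32 and 0.49 and Gpr17 at 0.27 and 0.22. By raw level in saline libraries at 28 days, the groups did not overlap for 3 of 7 genes between NAc and VTA, 1 of 7 between NAc and PFC, and 4 of 7 between VTA and PFC, beside 42%, 30.8% and 39.3% of all genes whose mean reached 0.5 RPKM. At 1 day they did not overlap for 5, 1 and 5 of 7, beside 44%, 24.6% and 45.7%. The fitted calls numbered 5, 2 and 7 of 7 in the cocaine libraries at 28 days, beside 68.5%, 53.4% and 64.9% of all genes for NAc and VTA, NAc and PFC, and VTA and PFC. They numbered 6, 1 and 7 of 7 in the saline libraries at 1 day, beside 66%, 40.9% and 64.6%, and 5, 1 and 6 with DESeq2 in the saline libraries at 28 days, beside 63.4%, 42.3% and 59%.

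Genes of later stages of the lineage were more uniformly high in VTA than the precursor genes. All 12 markers of mature oligodendrocytes were higher in VTA than in NAc (median log2 fold change NAc minus VTA, -1.66) and than in PFC (median VTA minus PFC, 1.57), among them the myelin genes Mbp (-1.68 and 1.61) and Mag (-1.73 and 1.59). All 8 genes of committed precursors and newly formed oligodendrocytes were higher in VTA in both comparisons (medians -1.67 and 1.5), led by the transcription factor gene Nkx6-2 (-1.83 and 1.96) and by Bcas1 (-1.66 and 1.55), a marker of early myelinating cells. The medians of the 7 precursor genes were -0.62 and 0.78 and those of all genes -0.03 and 0.02. Between NAc and PFC none of the 12 mature markers passed edgeR's test (median -0.07), nor did any with DESeq2.

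Other genes of the precursor stage split by direction. Of 16 listed, 7 were higher in VTA and 2 in NAc (median NAc minus VTA, -0.23), and 10 were higher in VTA and 2 in PFC (median VTA minus PFC, 0.45). The lineage transcription factors Olig1 (-1.12 NAc minus VTA) and Nkx2-2 (-1.38, and 1.51 VTA minus PFC) were higher in VTA, as was the guidance cue Ntn1 against PFC (2.75). Cacng4, an AMPA receptor auxiliary subunit, and Rlbp1, a retinoid-binding protein, were higher in NAc than in VTA (1.12 and 0.41). Rlbp1 (-1.01) and the matrix protein gene Tnr (-0.72) were lower in VTA than in PFC. Between NAc and PFC 4 were higher in NAc, led by Cacng4 (1.75) and Ntn1 (1.76), and 2 in PFC, Rlbp1 (-0.60) and Pcdh15 (-0.45).

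**Figure D3:**
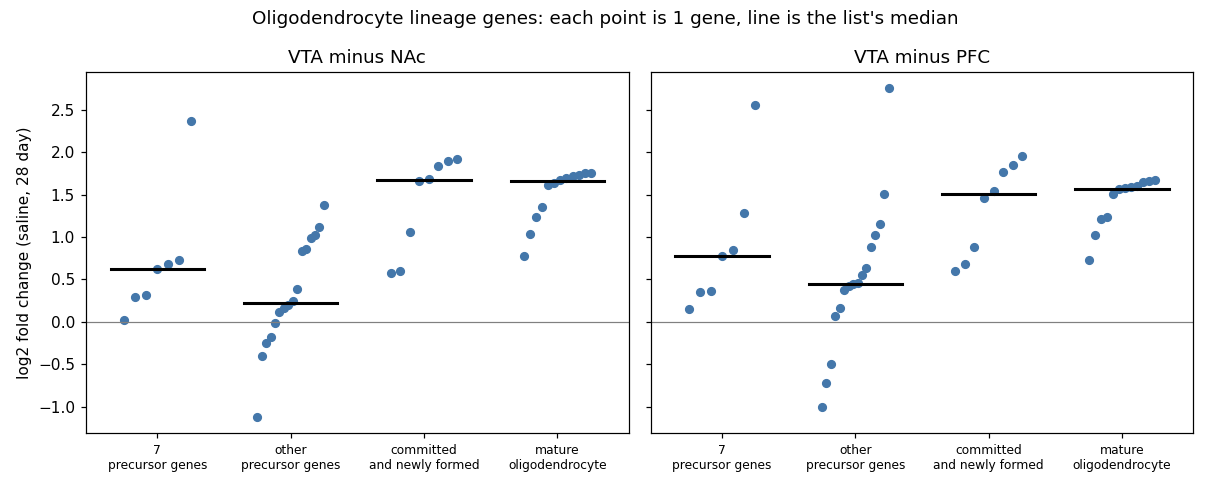
Log2 fold change in saline libraries at 28 days (y axis), VTA minus NAc on the left and VTA minus PFC on the right, for 4 lists of the oligodendrocyte lineage (x axis). Each point is 1 gene and each line the median of its list. All 12 mature and all 8 committed genes lie above 0, while the precursor genes spread from near 0 to the high value of C1ql1.

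The ligands of the PDGF receptors did not share 1 regional pattern. Of 5 pathway genes tested, Pdgfd (-2.56) and Pdgfa (-0.80), the ligand of the precursor receptor, were higher in VTA than in NAc, and Pdgfb was higher in NAc (0.38). Between VTA and PFC Pdgfd was higher in VTA (1.98) and Pdgfb in PFC (-0.83). Between NAc and PFC 3 genes were higher in PFC, including Pdgfa (-0.61) and Pdgfb (-0.45).

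Relatives and partners of the 7 genes were measured on the same libraries, and 11 of 12 could be tested. Between NAc and VTA 7 were higher in VTA, led by Lhfpl5 (-2.48) and Lhfpl2 (-1.39), and 4 in NAc, led by Adgrb3 (1.04), which encodes the C1QL receptor, and the sialidase gene Neu2 (3.26). Between VTA and PFC 5 were higher in VTA, led by Lhfpl5 (1.95) and C1ql2 (3.52), and 3 in PFC, led by Adgrb3 (-0.83) and Neu2 (-2.76). Between NAc and PFC 2 were higher in NAc and 4 in PFC, among them C1ql3, a paralog of C1ql1 (-3.95). C1ql1 was thus higher, and Adgrb3 lower, in VTA than in either other region. Of the 8 genes of cell division 3 were higher in NAc than in VTA, beside 29.8% of all genes, among them Ccna2 (1.06) and Ccnb1 (1.92). The other 5 did not pass. All 8 were low, with a median sum of 3.16 RPKM in saline NAc and 2.14 in saline VTA at 28 days.

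Levels at 1 day and 28 days are given side by side without a test, because the time points were deposited as separate tables and time and table cannot be told apart. In saline libraries the ratio of the 28-day mean to the 1-day mean of the 7 genes had a median of 1.12 in NAc, 1.06 in VTA and 1.12 in PFC. C1ql1 was at 2.02, 1.90 and 2.30 times its 1-day level in NAc, VTA and PFC, and Cspg4 at 1.97, 1.79 and 1.90 times. Pdgfra was at 0.751, 0.845 and 0.759 times. Gpr17, Neu4 and Megf11 lay between 0.974 and 1.13 times in all 3 regions. Lhfpl3 was at 1.05, 1.04 and 1.48 times. Pdgfra was thus lower, and C1ql1, Cspg4, Gpr17 and Lhfpl3 higher, at 28 days in all 3 regions, with Gpr17 close to its 1-day level in VTA and PFC.

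Cocaine was compared with saline within each region and time point. The genes were chosen with these contrasts already known, so what follows is a description. No gene of the 7 passed an adjusted p of 0.05 in any of the 6 tables with edgeR or limma, beside 0.0126%, 0.0665% and 0.00693% of all genes in NAc, VTA and PFC at 1 day and 0% in each region at 28 days. At an unadjusted p under 0.05 the count was 1 of 7 in NAc at both times, in VTA at 1 day and in PFC at 28 days, and 0 in the other 2 tables, where all genes gave 4.01% and 6.76% (NAc at 1 and 28 days), 15.7% and 11.5% (VTA) and 3.78% and 5.66% (PFC). With the second tool, DESeq2 on counts or edgeR on reads recovered from RPKM, 1 of 7 passed in NAc at 28 days and 0 in the other 5 tables, beside 0.0859% of all genes in that table and 0.132% (NAc at 1 day), 0.341% and 0.437% (VTA at 1 and 28 days), and 0.00635% and 0.0122% (PFC) in the others.

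Megf11 in NAc at 28 days had the most separate groups. Its level was 2.47, 2.75 and 2.86 RPKM in saline and 3.11, 3.32 and 3.75 in cocaine libraries (lowest, median, highest). All 6 cocaine libraries lay above all 6 saline libraries, which was so for no other of the 42 pairs of groups, beside 0.307% of all genes without overlap in that table and 0.22% (NAc at 1 day), 1.67% and 1.35% (VTA at 1 and 28 days) and 0.159% and 0.241% (PFC) in the others. The log2 fold change was 0.29 (SE 0.0562), and the adjusted p was 0.592 with edgeR and 0.0102 with DESeq2. Megf11 was at 0.03 (SE 0.0816) in NAc at 1 day and 0.19 (SE 0.107) in PFC at 28 days, and its values in the other 3 tables lay between -0.14 and -0.08.

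Lhfpl3 in VTA at 1 day had the most negative difference of the 42. Its level was 13.5, 16.7 and 24.5 RPKM in saline and 11.4, 12.7 and 14.5 in cocaine libraries, and the groups overlapped between 13.5 and 14.5. The difference was -0.41 on the log2(RPKM + 0.1) scale (SE 0.125, limma adjusted p = 0.179), and -0.47 on recovered reads (edgeR adjusted p = 0.137). Without cocaine libraries 3 and 6 it was -0.33. In PFC at 28 days Lhfpl3 was at 5.17, 6.82 and 7.94 RPKM in saline and 4.39, 5.35 and 6.55 in cocaine libraries, which overlapped, for a difference of -0.29 (SE 0.132, and from -0.36 to -0.24 when each library was left out in turn). It was at -0.23 (SE 0.133) in NAc at 1 day and 0.22 (SE 0.135) in NAc at 28 days.

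Gpr17 in NAc at 1 day was at 10.3, 12.1 and 12.8 RPKM in saline and 11.0, 13.4 and 14.7 in cocaine libraries, with overlap, for a difference of 0.19 (SE 0.0741). In the other 5 tables its difference lay between 0.01 and 0.14. Pdgfra lay between -0.04 and 0.08 in all 6 tables, and its highest level of all 71 libraries, 19.2 RPKM, was in cocaine library 6 of VTA at 1 day, where the fibroblast sum was 247.5. Cspg4 lay between -0.23 and 0.14, Neu4 between -0.13 and 0.14 and C1ql1 between -0.23 and 0.17. C1ql1 in VTA at 1 day was at 9.51, 12.0 and 27.1 RPKM in saline and 6.22, 12.5 and 18.1 in cocaine libraries, with overlapping ranges, and its difference of -0.23 was 0.13 without cocaine libraries 3 and 6. When each library of that table was left out in turn it ranged from -0.37 to -0.02, the latter without saline library 6, which held the 27.1 RPKM. The median difference of the 7 genes was 0.03, -0.08 and -0.03 in NAc, VTA and PFC at 1 day and 0.14, -0.04 and 0.01 at 28 days. Leaving out 1 library at a time changed its sign in 4 tables, with ranges from -0.0066 to 0.063 (NAc at 1 day), -0.13 to 0.032 (VTA at 28 days), -0.095 to 0.0074 (PFC at 1 day) and -0.017 to 0.061 (PFC at 28 days). It ranged from 0.066 to 0.19 in NAc at 28 days and from -0.13 to -0.035 in VTA at 1 day. The lower genes numbered 3, 5 and 5 of 7 in NAc, VTA and PFC at 1 day, beside 50.5%, 41.1% and 54.6% of all genes tested, and 1, 4 and 2 of 7 at 28 days, beside 48%, 56.9% and 49.9%.

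**Figure D4:**
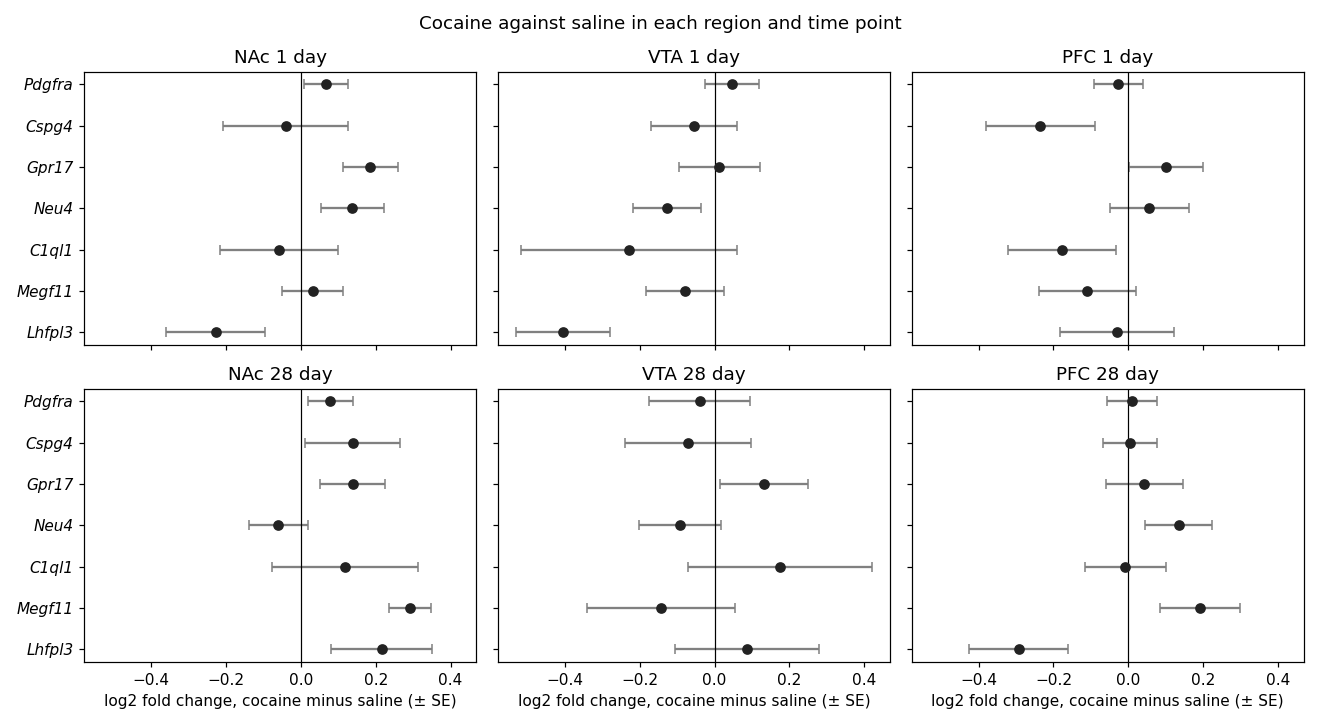
Log2 fold change of cocaine against saline (x axis, ± SE) for each gene (y axis) in NAc, VTA and PFC at 1 day (upper row) and 28 days (lower row). Megf11 in NAc at 28 days (0.29) and Lhfpl3 in VTA at 1 day (-0.41) lie farthest from 0 relative to their SE, and no point passed an adjusted p of 0.05 in edgeR or limma.

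The wider lineage was set beside these values. In VTA at 1 day 13 of 16 other precursor genes had lower values after cocaine, 7 of them at an unadjusted p under 0.05 (median -0.23). All 12 mature markers also had lower values, 3 of them at that level (median -0.19). Of all genes 15.7% were at that level in either direction, and none of these listed genes passed the adjusted threshold of limma. Microglial markers were lower for 7 of 7 genes (median -0.45). In the same table the summed fibroblast markers ran from 13.4 to 72.6 RPKM in saline and from 38.2 to 247.5 in cocaine libraries, cortical markers from 2.01 to 31.5 and from 6.46 to 77.4, and dopamine markers from 663 to 1693 and from 424.7 to 1037. No fibroblast or dopamine marker was at 0 in that table, and neither was any cortical one. With the cortical neuron markers as a covariate Lhfpl3 was at -0.21 (SE 0.147, limma adjusted p = 0.818) in place of -0.41. The part of tissue composition in the value of Lhfpl3 was not otherwise tested.

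In NAc at 28 days 11 of 16 other precursor genes had higher values after cocaine, 4 of them at an unadjusted p under 0.05 (median 0.07). There 11 of 12 mature markers had lower values, 2 of them at that level (median -0.09), beside 6.76% of all genes in either direction. Markers of other cells differed in the same table as well, most of them short of that level. Values after cocaine were lower for 6 of 6 cortical markers (median -0.58) and 6 of 6 striatal markers (median -0.16), and higher for 6 of 7 astrocyte markers (median 0.08). Of these 3 lists 0 genes had an unadjusted p under 0.05. Lower values were also seen for 5 of 5 endothelial markers (1 at that level, median -0.16) and 6 of 7 mural markers (2 at that level, median -0.13). Fibroblast markers were higher for 4 of 6 (median 0.16), with 2 higher and 1 lower at that level. Their part in the values of Megf11 and the other precursor genes was not tested. In VTA at 28 days all 12 mature markers had lower values (3 at an unadjusted p under 0.05, beside 11.5% of all genes, median -0.39). So did 7 of 7 microglial (median -0.31), 7 of 7 mural (-0.40) and 5 of 5 endothelial markers (-0.42). Lower values were also seen for 6 of 6 fibroblast (-1.13) and 4 of 5 cortical markers (-1.01), and higher values for 5 of 6 dopamine markers (0.16). The part of tissue composition in the mature marker values was not tested. The other precursor genes had a median of -0.05. With the cortical neuron markers as a covariate Pdgfra in that table moved from -0.04 to 0.35 and Cspg4 from -0.07 to 0.49. In the same fit Megf11 moved from -0.14 to 0.29, and none of these genes passed. Without saline libraries 4 and 5 of that table Pdgfra was at 0.13, Cspg4 at 0.22 and Megf11 at 0.14, and the median of the 7 was 0.13 in place of -0.04. The 12 mature markers were split in NAc at 1 day, with 5 higher and 7 lower after cocaine (median -0.05). In PFC 11 of the 12 had higher values at 1 day (median 0.20), and all 12 had lower values at 28 days (median -0.26). In PFC at 28 days all 6 striatal markers had lower values after cocaine (median -1.43). The saline group of that table held library 4 with the striatal sum of 734.6 RPKM, and the part of that library in the marker values was not tested.

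Library-to-library likeness was described over the 71 libraries, after the mean of each library's own group was subtracted and the values were scaled within each table. The points share library depth, dissection and tissue composition, so the coefficients describe these libraries. The 21 pairs of the 7 genes had Pearson r from -0.07 to 0.55 with a median of 0.30, and 19 were over 0. Cspg4 and Lhfpl3 had the highest r (0.55), followed by Neu4 with Lhfpl3 (0.50) and Gpr17 with Neu4 (0.49). C1ql1 and Megf11 had the lowest (-0.07). Lhfpl3 had a median r of 0.41 with the other 6 genes against 0.06 with all genes, whereas C1ql1 had 0.16 against 0.08. The 95th percentile of r with all genes was 0.398 for Lhfpl3 and 0.42 for C1ql1. Lhfpl3 alone of the set had a median with the other 6 genes above its own 95th percentile.

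**Figure D5:**
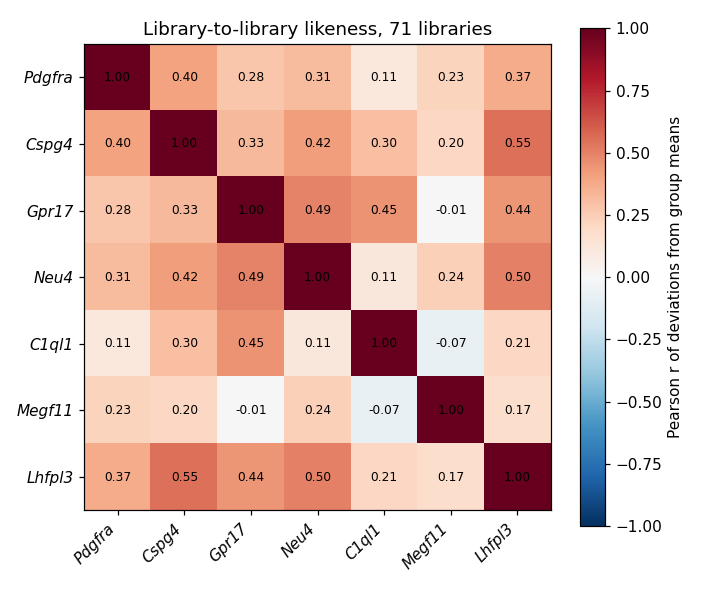
Pearson r between the 7 genes (both axes) over 71 libraries, from deviations of each library from its group mean. Colour and printed value give r, from -0.07 for C1ql1 with Megf11 to 0.55 for Cspg4 with Lhfpl3.

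Beyond the set, the gene whose deviations were most like the mean of the 7 was Llgl1, a cell polarity gene (r = 0.83), followed by 9830001H06Rik (0.82), Plxnb1, a semaphorin receptor (0.80), Sall1, a zinc finger factor (0.80), Pygb, brain glycogen phosphorylase (0.79), Dnm2 (0.77), 5031439G07Rik (0.77), Scrib, another polarity gene (0.76), Itpkb (0.76) and Phldb1 (0.76), out of 13516 genes. By list, microglial markers had a median r of 0.57 with the mean of the 7, the other precursor genes 0.39, astrocyte markers 0.35, endothelial markers 0.30 and mature oligodendrocyte markers 0.29. Genes of committed precursors and newly formed oligodendrocytes had 0.26, mural markers 0.25 and the 3 measured markers of perivascular fibroblasts 0.08. The median over all genes was 0.10, and the 3 cortical markers measured in all tables had a median of -0.08.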

How the data were processed

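Bulk RNA-seq of micro-punched NAc, VTA and PFC was read from 6 deposited tables. Reads were aligned by the authors to mm9 with STAR 2.4.1d; the tools named in the submitters' processing notes also include DESeq2 and edgeR, and the counting settings are not given in the sources used here. The deposited values are read counts per gene for NAc at 1 day and for all regions at 28 days, and RPKM normalised by the authors for VTA and PFC at 1 day. For the count tables RPKM was computed from counts, total reads and the gene lengths implied by the deposited RPKM. Another 30 value columns matched no sample here and were not used, nor were the authors' own fold changes and p-values. The 28-day columns carried no replicate number tied to a sample label, so their numbers follow column order within a group and only name a library.

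Counts were tested with edgeR 4.0.16 (TMM, filterByExpr, quasi-likelihood test) and log2(RPKM + 0.1) with limma 3.58.1 (trend) for genes whose mean reached 0.5 RPKM, in R 4.3.3, with Benjamini-Hochberg adjustment over all genes tested. Alternatives were DESeq2 1.42.0, edgeR on whole reads recovered from RPKM (all 23806 genes of the VTA table and all 23353 of the PFC table gave whole reads within 0.01 reads), other filters and pseudocounts, a replicate block, a cortical marker covariate, and leaving out each library. The scripts were tested on simulated data. Replicates differed by more than sampling noise. RPKM hides depth, so lowly counted genes are less precise. The genes and lists were chosen with earlier results of these data known. Named genes were the 7, the 10 most alike, and from each list at most 2 per direction, by smallest adjusted p, between regions, or past the threshold after cocaine. The result of 1 listed marker gene is not reported here.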

Additional observations from a re-analysis of the deposited data

Results flagged for a closer look

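Of 84 group values checked (7 genes in 12 groups), 6 held a library far from the rest of its group by Dixon's test, and chance flags about 1 in 20. In NAc at 1 day, cocaine library 6 was lowest in Pdgfra at 11.5 RPKM, where the next was 13.8. In the same group cocaine library 5 was highest in both Cspg4 at 2.57 RPKM (next 1.66) and Lhfpl3 at 12.8 RPKM (next 8.73). In VTA at 1 day, saline library 6 held 27.1 RPKM of C1ql1, where the next was 12.6, and it also had the highest sum of mature oligodendrocyte markers of its group (6728 RPKM). Cocaine library 5 of that table was lowest in Neu4 at 2.94 RPKM (next 3.69), and cocaine library 1 was highest in Megf11 at 5.23 RPKM (next 4.38). Whether an effect of cocaine differed between regions or times was not tested.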

How the results depend on the processing

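Between regions, C1ql1, Neu4 and Megf11 higher in VTA than in NAc and PFC, and Lhfpl3 higher in VTA than in both and in NAc than in PFC, kept their direction and their call under every alternative run. Pdgfra between NAc and VTA lost its call in 12 of 17 fits without 1 library. The members called ranged from 4 to 6 (NAc and VTA), 1 to 1 (NAc and PFC) and 5 to 6 (VTA and PFC) without 1 library, and 2 were called between NAc and PFC in the cocaine libraries. Small differences changed sign. Gpr17 ranged from -0.11 to 0.055 (NAc minus VTA) and Megf11 from -0.013 to 0.16 (NAc minus PFC) without 1 library. Between NAc and PFC Neu4 was -0.025 in the cocaine libraries and -0.030 in the 1-day saline libraries, and Cspg4 was -0.0083 in the latter. Cspg4 between VTA and PFC passed with DESeq2 (0.38, DESeq2 adjusted p = 0.0401).

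After cocaine, the genes called over all genes were 2, 10 and 1 in NAc, VTA and PFC at 1 day and 0 in each region at 28 days. They became 636, 2366 and 546 at 1 day and 1102, 1942 and 925 at 28 days at an unadjusted p under 0.05, where 1 of the 7 passed in NAc at 1 day, NAc at 28 days, VTA at 1 day and PFC at 28 days. DESeq2 called 21 in NAc at 1 day, and 14 (Megf11 among them, 1 of the 7), 74 and 2 in NAc, VTA and PFC at 28 days. In VTA at 1 day recovered reads gave 55 and the cortical covariate 0. Without 1 library the counts ranged from 0 to 2 (NAc at 1 day and at 28 days), 0 to 65 (VTA at 1 day) and 1 to 2 (PFC at 1 day). The cause was not tested.

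With a replicate block, on the 1-day numbers of the labels, 60 genes were called in VTA and the adjusted p of Lhfpl3 was 0.0755, and between NAc and PFC Neu4 was -0.025 and Cspg4 -0.0097. Same-numbered libraries correlated over 0.1 in 3, 4 and 0 of 6 pairs in NAc, VTA and PFC, and 2, 2 and 0 of 6 matched best with their own number, so the numbers were not taken as pairs. The 28-day columns carry no such numbers. Depth limited Lhfpl3 and C1ql1 most, with as few as 62 and 45 reads in a library.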
